A study of Homo sapiens with 4 samples.

Results

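The genes described here code for the proteins that bind small nuclear and nucleolar RNAs, assemble them into particles and carry them to the Cajal body. They comprise the core proteins of box C/D and box H/ACA small nucleolar ribonucleoproteins (snoRNPs), their assembly factors, Cajal body and nucleolar proteins, and the SMN complex, which loads Sm proteins onto spliceosomal small nuclear RNAs (snRNAs). The members were taken by gene symbol, 32 genes in all, of which 31 could be matched to one of the 51714 Ensembl identifiers in the count tables. ZNHIT3, a zinc-finger factor of C/D snoRNP assembly, was matched by neither name table and is not analysed here. Of the 31, 30 passed the filter on low counts and were tested, and SMN1 did not pass.

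RNA came from Raji, a human B cell line established from a Burkitt lymphoma and positive for Epstein-Barr virus. Both groups carried a vector that expresses recombinant, HA-tagged RPB1, which is the largest subunit of RNA polymerase II, in a form resistant to α-amanitin. The vector's RPB1 was wild-type in the WT group (2 libraries) and carried the R1810A substitution, which replaces a methylatable arginine in the C-terminal domain by alanine, in the R1810A group (2 libraries). Both groups were selected with G418 for 6 to 12 days and then with α-amanitin for 10 days, which blocks the endogenous polymerase, and both were polyclonal batches from electroporation. Every group therefore had drug treatment and a transgene, and no untransfected or untreated group was compared. Total RNA was depleted of ribosomal RNA before sequencing. Summed gene counts ran from 2081636 to 2991959 per library. The B cell markers MS4A1 and PAX5 both had at least 20 reads in every library. Of the 4 T cell markers, 3 had 0 reads in all libraries, as had 3 of the 4 epithelial and stromal markers. Of the 3 myeloid markers, CD14 had at most 1 read and LYZ at most 17, but CSF1R had 324 to 508. Whether replicate libraries stem from separate cultures is not stated, so the p-values reflect the variation among these 4 libraries, some or all of which may be technical. In bulk RNA, fewer cells with a transcript and fewer transcripts per cell cannot be told apart.

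A small RNA of this kind is generally stable only inside its particle. Box C/D RNAs are bound by fibrillarin (FBL, the methyltransferase), NOP56, NOP58 and SNU13, and direct ribose methylation. Box H/ACA RNAs are bound by dyskerin (DKC1, the pseudouridine synthase), NHP2, NOP10 and GAR1, and direct pseudouridylation. Most snoRNAs are cut from introns, and several members of the protein set are themselves host genes of such RNAs. In the same libraries many small RNA genes were higher in R1810A, so the comparison asked whether the messenger RNAs of their protein partners followed.

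NOP56 (chr20:2652145-2658393, GRCh38, plus strand) and DKC1 (chrX:154762742-154777689, plus strand) illustrate the link between protein and RNA, since the gene for a C/D protein holds C/D snoRNAs and the gene for an H/ACA protein holds H/ACA snoRNAs. The match of classes is not complete, because NOP56 also holds an H/ACA snoRNA, SNORA51 (chr20:2655067-2655198). Its GENCODE release 29 identifier is absent from the count tables, so it had no reads to analyse under that identifier. A pair from each host is shown, as annotated in GENCODE release 29 on GRCh38. The NOP56 pair was chosen because both boxes were found in it, while SNORD86 and SNORD56 of the same gene had no match to the C box letters. The C box (searched as TGATGA in the first 25 bases) and the D box (the last CTGA in the last 25 bases) are in capitals in the first pair. The H box (the first ANANNA starting between 35 and 60% of the length) is in capitals in the second pair. So is the ACA box (the last ACA or ATA in the last 8 bases). In SNORA56 an ATA lies directly before the marked ACA, and which of them is the box was not tested.
SNORD110, chr20:2654212-2654286: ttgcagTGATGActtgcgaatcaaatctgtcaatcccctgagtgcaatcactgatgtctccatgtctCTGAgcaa
SNORD57, chr20:2656939-2657010: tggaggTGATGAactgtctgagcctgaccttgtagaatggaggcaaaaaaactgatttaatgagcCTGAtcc
SNORA36A, chrX:154768528-154768659: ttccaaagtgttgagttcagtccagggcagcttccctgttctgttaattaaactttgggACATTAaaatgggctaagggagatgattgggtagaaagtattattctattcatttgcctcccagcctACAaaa
SNORA56, chrX:154774998-154775126: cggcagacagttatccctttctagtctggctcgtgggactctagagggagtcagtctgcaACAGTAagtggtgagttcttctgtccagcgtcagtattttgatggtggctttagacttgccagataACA
Only the RNA's own strand was searched. Both boxes were found in 65.3% of 288 annotated SNORD transcripts and in 89.9% of 149 SNORA transcripts, and a match is a description of the letters, not a test of function.

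The nested RNAs had almost no reads. SNORD110, SNORD57, SNORA36A and SNORA56 had 0 reads in all 4 libraries, as did SNORD86 and SNORD56 in NOP56 and SNORD70B and SNORD11 in NOP58. SNORD70 in NOP58 had 2 reads in WT replicate 2 and 0 elsewhere. Of the 9 snoRNA genes of the count tables that lie inside a member gene, 8 were thus at 0 throughout. Of all annotated snoRNA and small Cajal body RNA genes in the tables, 55 of 110 that touch an exon of a host gene had 0 reads in every library (50%), against 252 of 392 that lie in a host intron only (64.3%). Among those with no host gene on the same strand it was 338 of 367 (92.1%). Of 4 nested snRNA copies, RNU2-37P in RUVBL1 had 1 read and 3 had none. The snoRNAs of NOP56 and DKC1 touch exons of some annotated transcript of their hosts, and how the counting assigned reads in such places is not given in the sources used here. Host and nested RNA could therefore not be compared within a member gene.

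No member gene passed the threshold. In the edgeR test of R1810A against WT over 10674 genes, 0 of the 30 tested members had an adjusted p under 0.05, where 38 genes, or 0.356% of all those tested, did (37 higher in R1810A, 0.347%, and 1 lower, 0.00937%). Leaving out WT replicate 2 gave 2 such genes, leaving out WT replicate 1 gave 153 and leaving out R1810A replicate 2 gave 82, with no member among them. DESeq2 and limma-voom also called 0 members. At an unadjusted p under 0.05, 2 members were lower (3.06% of all tested genes were) and 0 were higher (4.94% were). The lower members were 1 without R1810A replicate 1 and 0 without R1810A replicate 2. DESeq2 gave 0 and 0 at that limit, and limma-voom 2 and 0. In edgeR, 3 members were lower and 0 higher with the deposited total reads as library size, and likewise with no filter on low counts. The median log2 fold change, R1810A over WT, was 0.02 over the 30 members, with 17 above 0 and 13 below, against a median of -0.00 over all tested genes. Single members lay between -0.82 (COIL) and 0.23 (DKC1).

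The intervals show what sizes of change these libraries could have missed. For 29 of the 30 tested members, the 95% interval of the fold change ended below a 2-fold rise (90.3% of all tested genes), and GAR1, with few reads, was the exception. For 26 it lay within a 2-fold change in either direction (82.5%), and for 22 within a 1.5-fold change (50.5%). Of 8611 protein-coding genes over the same range of mean counts, 15.5 to 973, 57% met the latter limit. Only the range was matched, and the intervals of that set were wider. The median half-width on the log2 scale was 0.37 there and 0.31 in the members. Between libraries, 4 members had both R1810A values above both WT values (19.8% of all tested genes did) and 6 had both below (19.5%).

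**Figure D1:**
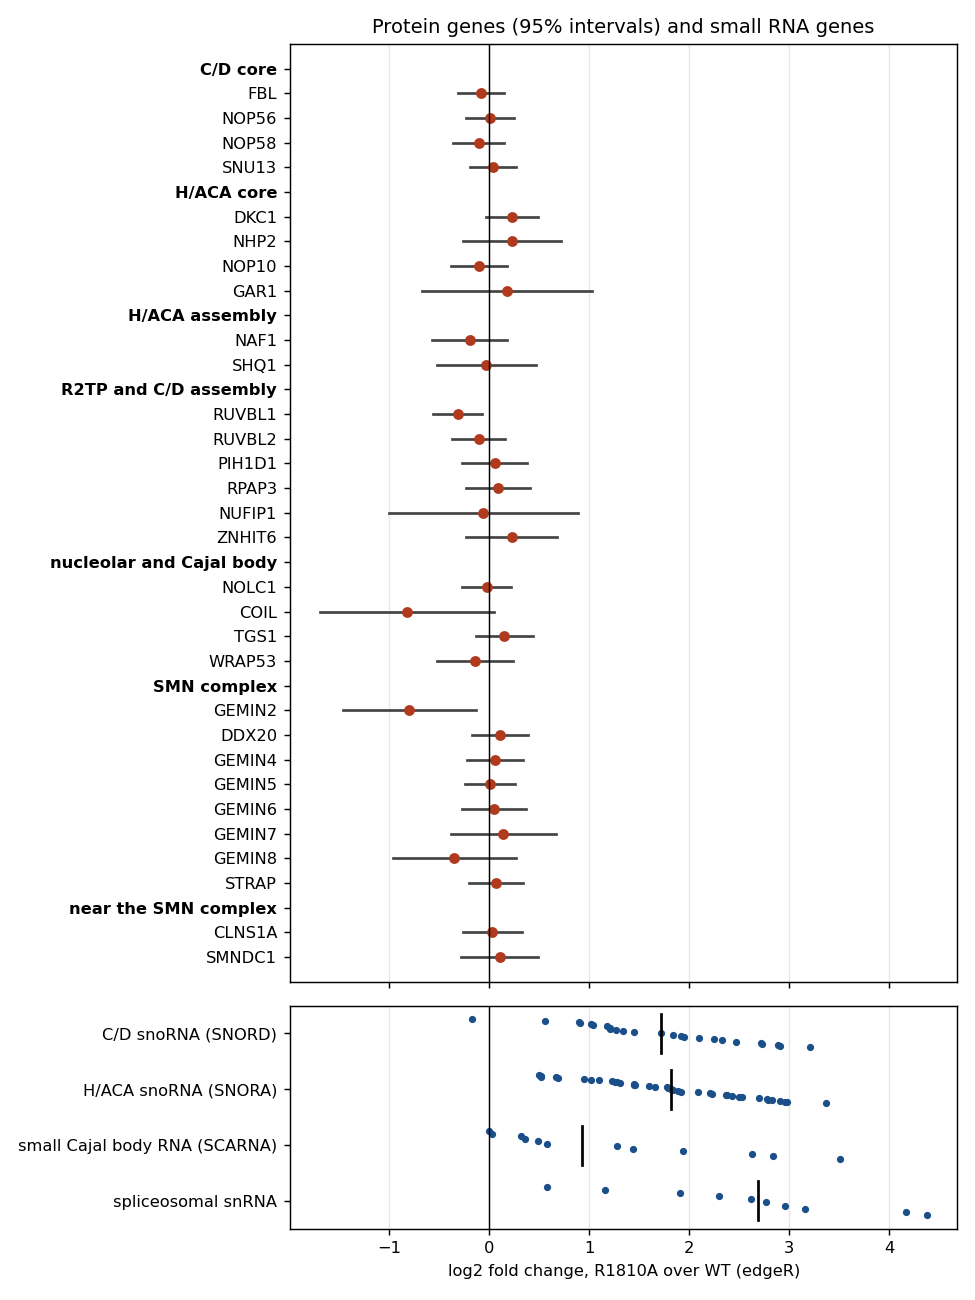
Upper panel: log2 fold change of R1810A over WT for the 30 tested member genes (points) with 95% intervals (lines), grouped by role. Lower panel: each tested small RNA gene as a point, with the class median as a bar (1.72, 1.82, 0.93 and 2.69 from top to bottom). The protein genes gather around 0 while most tested small RNA genes lie to the right of them.

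The small RNA genes are shown beside their partners on the same scale. The highest member value, 0.23, was exceeded by 24 of 25 tested SNORD genes, 40 of 40 SNORA genes, 10 of 12 SCARNA genes (small Cajal body RNAs) and 10 of 10 tested genes with snRNA symbols other than U7. The lower end of the 95% interval, not adjusted for the number of genes, lay above 0.23 in 21, 33, 6 and 9 of them. The share of all tested genes above 0.23 was not counted. At the threshold used for the members, an edgeR adjusted p under 0.05, 5, 16, 2 and 4 were higher in R1810A and 0 lower. The median log2 fold changes of the tested genes in these classes were 1.72, 1.82, 0.93 and 2.69. Those of the C/D core, the H/ACA core and the SMN complex were -0.03, 0.20 and 0.06. Only 25 of 258 SNORD, 40 of 185 SNORA, 12 of 19 SCARNA and 10 of 1635 snRNA-named genes passed the filter on low counts. A gene with few reads can pass through the group in which it is higher, so these shares and medians partly depend on the filter. These RNA classes were looked at because they are known to be raised in these samples. The contrast therefore describes the libraries and is not independent evidence on the RNAs.

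Summed over genes, the 7 protein groups had R1810A means between 0.918 (H/ACA assembly) and 1.08 times (H/ACA core) those of WT, while the SNORD, SNORA, SCARNA and snRNA classes had 2.44, 2.66, 1.45 and 5.61 times. Levels between libraries are given as CPM, which divides each count by the TMM-scaled size of its library. The C/D core summed to 850.9 and 832.9 CPM in WT and 831.1 and 816.4 in R1810A, with the R1810A values just below those of WT. SNORD genes summed to 524.9 and 575.6 CPM in WT and 1608 and 1074 in R1810A. The H/ACA core stood at 307.6 and 285.3 CPM in WT and 311.2 and 328.1 in R1810A, while SNORA genes stood at 1274 and 1170 against 4084 and 2429. In both RNA classes R1810A replicate 1 was the higher of the pair. That order did not appear in the H/ACA core, where replicate 2 was higher, and the C/D core differed little between them. SCARNA genes summed to 781.7 and 1001 CPM in WT and 1549 and 1030 in R1810A, so R1810A replicate 2 was close to WT replicate 2.

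Expressed per 100 counts at the partner genes, SNORD reads came to 61.69 and 69.1 in the WT libraries against 193.5 and 131.5 in R1810A, a 2.48-fold difference of means. SNORA reads per 100 counts at the H/ACA core were 414.1 and 410 in WT and 1312 and 740.2 in R1810A (2.49-fold). Reads at snRNA genes per 100 counts at the SMN complex were 13.29 and 15.74 in WT and 107.6 and 49.67 in R1810A (5.42-fold). In WT replicate 1, STRAP held 835 of the 1911 SMN complex counts, and SMN1 had at most 2 reads in any library. Without STRAP in the SMN complex sum, the snRNA ratio was 5.58-fold. The snRNA class took the 1635 genes with snRNA symbols other than U7, U6 and pseudogene copies included. It was not limited to RNAs that the SMN complex loads. In all 3 ratios the R1810A libraries were above those of WT without overlap, and the R1810A libraries differed from each other more than the WT libraries did. The snRNA ratio rests partly on R1810A replicate 1, without which it was 3.42-fold, while the others were then 2.01-fold for SNORD and 1.8-fold for SNORA. These are counts, not molecules, and a long messenger RNA yields more reads per molecule than a short RNA. Only their change between libraries can therefore be read. Single genes weigh heavily in the small RNA sums. The tested gene with the most reads averaged 1125 counts for SNORD, 2289 for SNORA and 365.2 for snRNA. The class sums ran from 1198 to 3353, 2907 to 8515 and 254 to 1865 counts per library. Ratios without that gene were not computed.

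**Figure D2:**
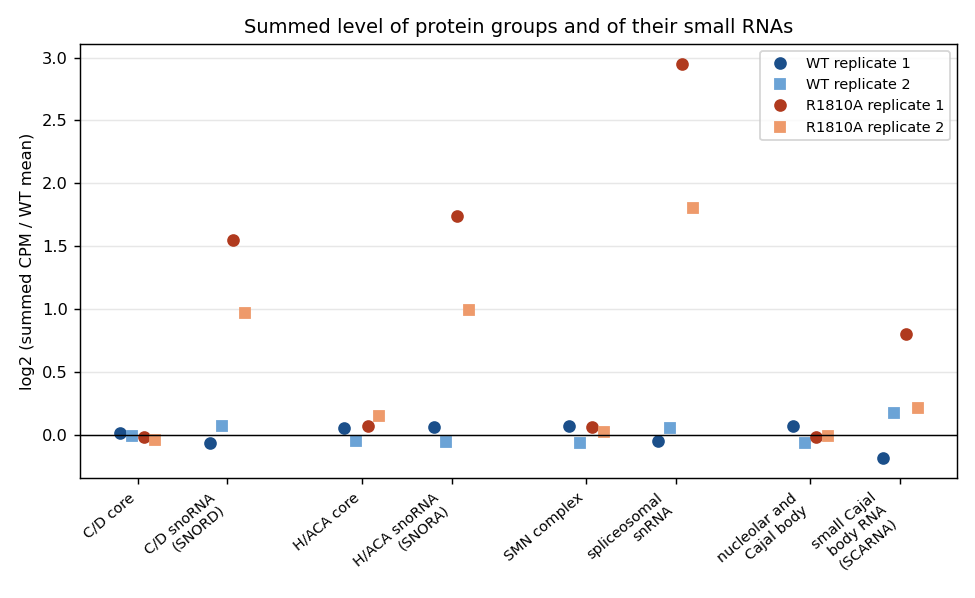
Summed CPM of the C/D core, the H/ACA core, the SMN complex and the nucleolar and Cajal body group, each beside a small RNA class. Points are the 4 libraries, as log2 of the ratio to the WT mean of the same set. The other protein groups are not shown. The protein groups shown stay within a narrow band around 0 in all libraries. The C/D, H/ACA and snRNA classes are raised in both R1810A libraries and more so in replicate 1. Small Cajal body RNAs of R1810A replicate 2 lie near those of WT replicate 2.

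Among the C/D core proteins, FBL (ENSG00000105202) had 621 and 836 reads in the WT libraries against 546 and 539 in R1810A. On the CPM scale that was 275.2 ± 4.38 in WT and 260.6 ± 1.79 in R1810A (SD, n = 2), with both R1810A libraries lower (log2 fold change -0.08, SE 0.10, adjusted p = 0.877). NOP56, the scaffold protein next to fibrillarin, had 378 and 505 reads in the WT libraries against 346 and 355 in R1810A, or 166.9 ± 1.75 and 168.4 ± 3.44 CPM. Its log2 fold change was 0.01, with an interval from -0.23 to 0.25, and the groups overlapped. NOP58, the other scaffold protein, had 392 and 463 reads in the WT libraries against 326 and 304 in R1810A. It stood at 162.9 ± 12.5 and 151.3 ± 7.13 CPM (log2 fold change -0.10, interval -0.36 to 0.15). SNU13, which binds the kink-turn of C/D RNAs and also of U4 snRNA, had 551 and 698 reads in the WT libraries against 515 and 499 in R1810A. It stood at 236.9 ± 6.42 and 243.5 ± 4.88 CPM (0.04, interval -0.19 to 0.27). For these 4 genes the intervals left no room for a 1.5-fold change in either direction.

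Among the H/ACA core proteins, DKC1 (ENSG00000130826) had 345 and 445 reads in the WT libraries against 342 and 390 in R1810A. Its level was 149.7 ± 2.14 CPM in WT and 175.8 ± 16.7 CPM in R1810A, with both R1810A libraries above WT (log2 fold change 0.23, SE 0.12, interval -0.03 to 0.49, adjusted p = 0.654). This was the largest positive value of any member, shared to 2 decimals by NHP2 and the C/D assembly factor ZNHIT6, and none of them passed. NHP2, a small RNA-binding protein, had 60 and 66 reads in the WT libraries against 65 and 52 in R1810A (interval -0.26 to 0.72). NOP10, the smallest core protein, had 283 and 324 reads in the WT libraries against 230 and 220 in R1810A. It stood at 115.9 ± 11.4 and 108.1 ± 3.15 CPM (-0.10, interval -0.38 to 0.18). GAR1 had 14 and 22 reads in the WT libraries against 12 and 20 in R1810A, so its interval ran from -0.67 to 1.03 and a 2-fold rise could not have been told from none. The assembly factor NAF1, which holds the place of GAR1 in the immature particle, stood at 43.61 ± 0.943 CPM in WT and 38.19 ± 3.82 in R1810A (-0.19, interval -0.57 to 0.18). SHQ1, a chaperone of dyskerin, had 88 and 86 reads in the WT libraries against 58 and 78 in R1810A (-0.03, interval -0.52 to 0.47).

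The assembly factors of the R2TP complex, an HSP90 cochaperone that builds C/D particles and RNA polymerases, held one of the members of smallest p. RUVBL1 (ENSG00000175792, chr3:128064778-128153914 in GRCh38, minus strand), one of the paired AAA+ ATPases of R2TP, had 464 and 571 reads in the WT libraries against 325 and 334 in R1810A. Its level was 203.3 and 190.1 CPM in WT and 155.9 and 160.7 CPM in R1810A, lower in both R1810A libraries. The log2 fold change was -0.31 (SE 0.11, interval -0.56 to -0.07, unadjusted p = 0.017), which did not pass over all genes (edgeR adjusted p = 0.481). On the opposite strand RUVBL1 overlaps exons of EEFSEC, a selenocysteine elongation factor gene with 151 and 159 reads in the WT libraries against 106 and 103 in R1810A. It also overlaps exons of SEC61A1, a translocon subunit gene with 1047 and 1083 reads in the WT libraries against 842 and 758 in R1810A. The reads of both overlapping genes are not scaled for library size, and neither gene is given on the CPM scale here. Library sizes over the tested genes were 2309895 and 2967784 in WT and 2098962 and 2064982 in R1810A. EEFSEC holds 4.87% of the 32-base stretches of RUVBL1, and the part of such shared reads in the RUVBL1 value was not tested. RUVBL2, the partner ATPase, stood at 279.9 ± 34.8 CPM in WT and 260.1 ± 14 in R1810A with overlapping groups (-0.10, interval -0.37 to 0.16). The other R2TP subunits PIH1D1 and RPAP3 were at 0.06 and 0.09. ZNHIT6 had 61 and 88 reads in the WT libraries against 77 and 60 in R1810A (0.23, interval -0.23 to 0.68). NUFIP1, an assembly platform protein, had 11 and 25 reads in the WT libraries against 17 and 10 in R1810A (log2 fold change -0.06, SE 0.43), with the widest interval of any tested member.

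Of the nucleolar and Cajal body proteins, COIL had the lowest log2 fold change of all members. Coilin, its product, is the scaffold protein that marks Cajal bodies. COIL had 17 and 26 reads in the WT libraries against 11 and 8 in R1810A, or 8.052 ± 0.853 and 4.562 ± 1.01 CPM, lower in both R1810A libraries. The log2 fold change was -0.82 (SE 0.39, interval -1.69 to 0.05, adjusted p = 0.641), so at this depth the difference could not be told from 0. NOLC1, a nucleolar chaperone of both particle classes, had the most reads of any member, 1018 and 1165 in WT and 864 and 845 in R1810A, giving -0.02 as log2 fold change (interval -0.27 to 0.22). TGS1, which trimethylates the caps of snRNAs and some snoRNAs, stood at 81.86 ± 1.36 and 91.03 ± 4.62 CPM (0.15, interval -0.13 to 0.44). WRAP53, which directs small Cajal body RNAs and telomerase RNA to the Cajal body, was at -0.14 (interval -0.52 to 0.24).

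In the SMN complex, GEMIN2 was the other member with an unadjusted p under 0.05. Gemin2 holds the ring of Sm proteins open before it closes on an snRNA. GEMIN2 (ENSG00000092208, chr14:39114223-39136973 in GRCh38, plus strand) had 38 and 62 reads in the WT libraries against 28 and 17 in R1810A. On the CPM scale the libraries were at 16.65 and 20.64 in WT and 13.43 and 8.179 in R1810A, so both R1810A libraries were lower and differed from each other by more than the WT libraries did. The log2 fold change was -0.80 (SE 0.30, interval -1.46 to -0.13, unadjusted p = 0.023), and it did not pass over all genes (edgeR adjusted p = 0.523). It was -1.20 without R1810A replicate 1 and -0.49 without R1810A replicate 2. Pseudogene copies share some of its sequence: GEMIN2P2 holds 1.98% of its 32-base stretches and had 2 to 5 reads per library.

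No other tested SMN complex member had an unadjusted p under 0.05. GEMIN8 was next lowest, with 35 and 44 reads in the WT libraries against 28 and 21 in R1810A (-0.35, interval -0.96 to 0.27). The helicase DDX20 (0.11), GEMIN4 (0.06), GEMIN5, which recognises the snRNA (0.01), GEMIN6 (0.05) and GEMIN7 (0.14) all had intervals that held 0. STRAP, a WD-repeat subunit with the most reads in the complex, had 835 and 910 reads in the WT libraries against 771 and 688 in R1810A (0.07, interval -0.20 to 0.34). CLNS1A, which holds Sm proteins before they reach SMN, was at 0.03 (interval -0.26 to 0.33). SMNDC1, a splicing factor related to SMN in sequence and not a subunit of the complex, was at 0.11 (interval -0.28 to 0.49). Differences between GEMIN2 and the other subunits were not tested.

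SMN1, the gene that gives the complex its name, had 0 and 2 reads in the WT libraries against 1 and 1 in R1810A, and its near-identical copy SMN2 had 0 in all 4 libraries. Of the 32-base stretches of SMN1 transcripts in GENCODE release 29, 89.4% also occur in SMN2 transcripts. The other members were far less shared: NHP2 was next at 32.7% (23% of its stretches lie in RMND5B on the opposite strand), and 26 members were under 12%. The counts at SMN1 say nothing about how much SMN messenger RNA these cells made. The part of NHP2's pseudogene NHP2P1, with 38 and 79 reads in the WT libraries against 61 and 52 in R1810A, in the NHP2 count was not tested.

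**Figure D3:**
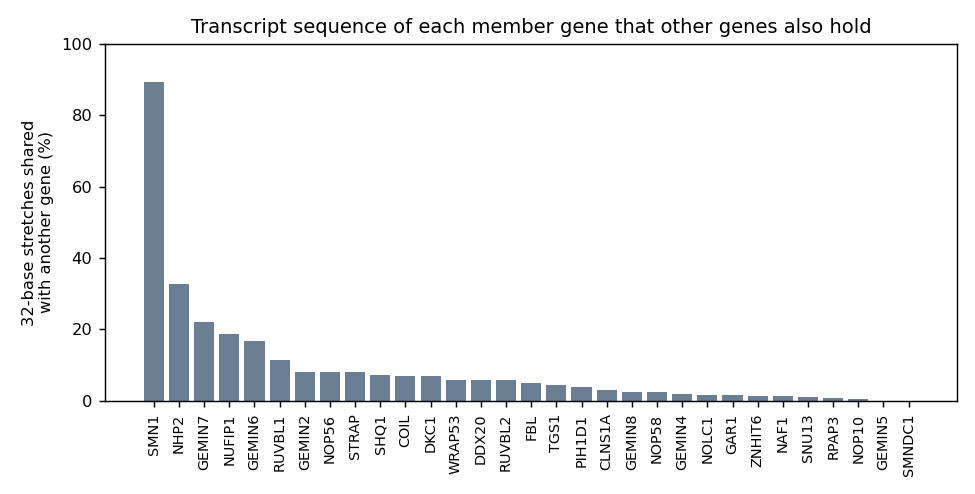
Percent of the distinct 32-base stretches in all GENCODE release 29 transcripts of each of the 31 matched member genes that also occur, on either strand, in a transcript of another gene. SMN1 stands apart at 89.4%, and GEMIN5 and SMNDC1 share none.

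Levels between genes were compared with the deposited RPKM, reads scaled by gene length and by total reads. FBL was the highest member, with 132 ± 1.89 RPKM in WT and 114 ± 3.25 in R1810A, followed by NOP10 with 116 ± 11.6 and 99.8 ± 5.06. STRAP stood at 96.1 ± 12.9 and 92.6 ± 9.22 RPKM and RUVBL2 at 97.8 ± 12.3 and 83.5 ± 6.3, so this pair was not separated by its spread. At the low end were SMN1 (0.0522 ± 0.0738 and 0.0693 ± 0.00134 RPKM), NUFIP1 (1.05 ± 0.393 and 0.953 ± 0.366) and COIL (1.7 ± 0.178 and 0.889 ± 0.215). The SMN1 value, as said above, does not show the level of SMN messenger RNA. Proteins that sit together in a particle thus differed widely in messenger RNA: within the H/ACA core the RPKM over the 4 libraries averaged 108 for NOP10, 20.5 for DKC1, 9.21 for NHP2 and 1.85 for GAR1. Within the C/D core it averaged 123 for FBL, 46.1 for SNU13, 25.5 for NOP58 and 18.8 for NOP56. RPKM between groups is scaled by the deposited total reads and not by TMM, which moves the median of all genes to -0.13 on the log2 scale.

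These levels depend on the gene length used. The deposited length of NOP56, 4761 bases, is 1.98 times that of its longest coding transcript in GENCODE release 29. With the latter, an alternative chosen after the data were seen, NOP56 averaged 37.3 RPKM, NOP58 41.1, SNU13 85.3 and FBL 123, and DKC1 28.1, NHP2 16.1, NOP10 108 and GAR1 3.13. The order within each core was kept. Among all members the deposited length ran from 0.458 (CLNS1A) to 2.52 times (NAF1) that of the longest coding transcript.

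**Figure D4:**
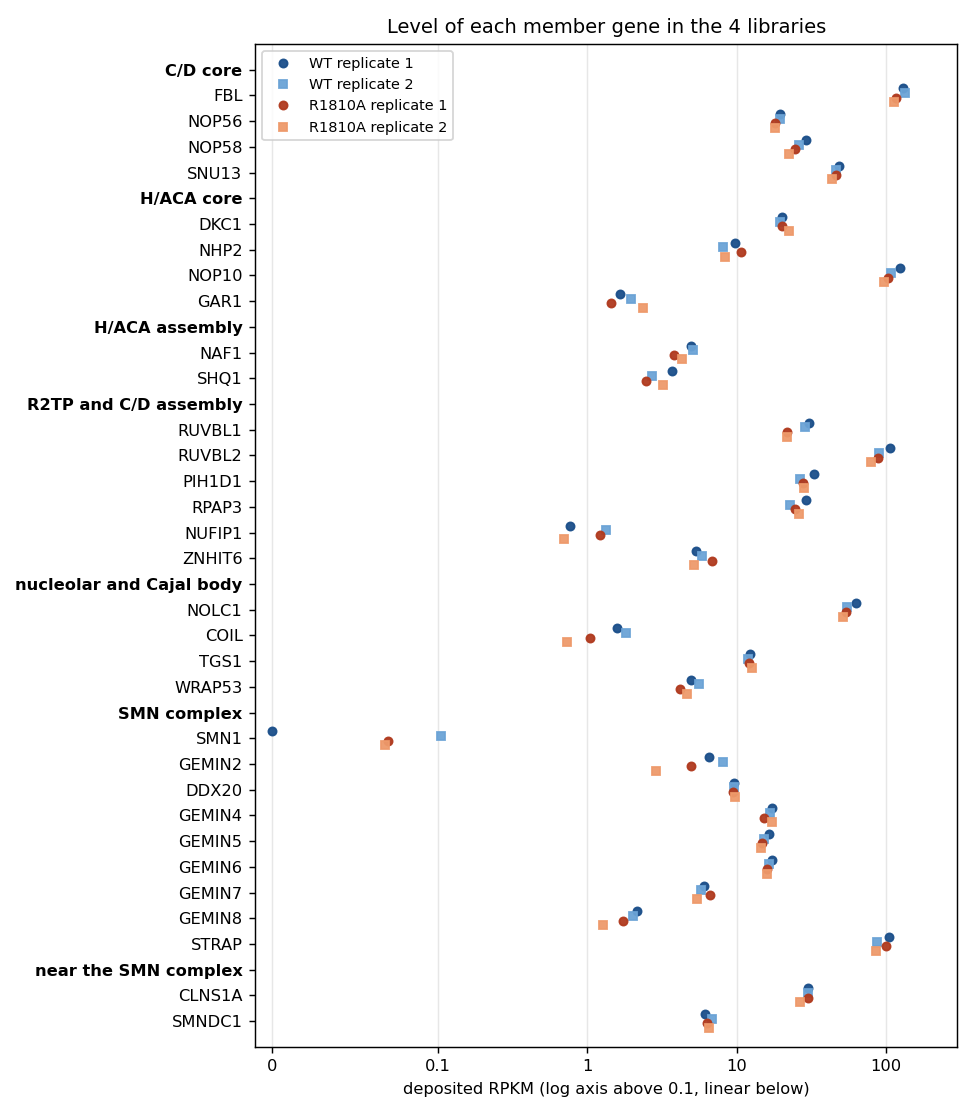
Deposited RPKM of the 31 matched member genes in each of the 4 libraries, grouped by role, on an axis that is logarithmic above 0.1 and linear below. The spread between tested genes, from NUFIP1 near 1 to FBL above 100, is far wider than the spread between libraries of any tested gene. SMN1, near 0, was not tested, and its reads say nothing about the level of SMN messenger RNA.

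Related genes of the same pathways, 45 in all, were read out of the same fit. Of these 43 were tested, 0 passed with edgeR, DESeq2 or limma-voom, an unadjusted p under 0.05 was found for 2 lower genes and 0 higher ones, and the median log2 fold change was 0.00. In the list of Sm proteins and the methylosome, which methylates Sm arginines, 12 of 13 genes were tested. WDR77, a methylosome subunit, had 141 and 257 reads in the WT libraries against 116 and 116 in R1810A (-0.41, SE 0.17, adjusted p = 0.594). PRMT5, its catalytic subunit, was at -0.23 (SE 0.11, adjusted p = 0.648). Among 14 tested partners of R2TP, HSP90AB1, the constitutive HSP90, had 699 and 856 reads in the WT libraries against 507 and 467 in R1810A (-0.34, SE 0.11, adjusted p = 0.407), and HSP90AA1 was at -0.29 (SE 0.15). In the 7 cap-binding, export and import factors, NCBP2 (0.24, SE 0.13) and NCBP1 (0.25, SE 0.14), subunits of the nuclear cap-binding complex, had the smallest p. The 4 proteins of the U3 particle, with RRP9 at -0.22 and IMP4 at -0.08, and 6 Cajal body and trimming genes, with USPL1 at -0.21 and SART3 at 0.17, also held no called gene.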

How the data were processed

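Raw read counts per gene were deposited for each of 4 libraries, with RPKM, a total read number and a gene length. The submitters' processing notes name Bowtie as the aligner and hg19 as the build. No version, counting program, annotation release, strand setting or rule for multiply matching reads was given in the sources used here. The deposited RPKM equalled count over length and total reads within a relative tolerance of 0.0001. Genes were named from a table of current symbols and then GENCODE release 29 (GRCh38), which also gave all coordinates and sequences. No coordinates of the build used for counting were used.

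The comparison used the quasi-likelihood test of edgeR 4.0.16 (R 4.3.3) after filterByExpr and TMM, with the group as sole term. The p-values were Benjamini-Hochberg adjusted over all 10674 tested genes and called at 0.05. The SE is the log2 fold change divided by the square root of F, and the 95% intervals use the fit's degrees of freedom and are not adjusted for the number of genes. Alternatives used DESeq2 1.42.0, limma 3.58.1 (voom), other scalings, other filters, a replicate block and each library left out. Libraries of a group differed by more than counting noise (chi-square per degree of freedom 3.77 in WT and 2.02 in R1810A). That value cannot tell technical from biological variation. Each library was counted as 1 replicate.

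The 32 members and all lists were chosen with earlier results of these data known. Every member is named. Reads or levels per library are given for the core proteins, members with an unadjusted p under 0.05, the 3 largest changes per direction at a mean count of at least 20, the highest and lowest by RPKM, hosts of snoRNAs and members not tested. Each related list has its 2 genes of smallest p named. Some of the markers and overlapping genes are not reported here.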

Additional observations from a re-analysis of the deposited data

How the results depend on the processing

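No member passed under any of the 14 alternatives, over 419 combinations of a tested member and an alternative, and the smallest adjusted p was 0.167 (RUVBL1, deposited total reads). No related gene passed under any of them. Signs of members near 0 were not stable: 30 of the combinations had the other sign, 11 of them with the deposited total reads as library size, and 13 members, RUVBL1, GEMIN2, COIL, FBL and DKC1 among them, kept theirs throughout. The member median of 0.02 was -0.10 with the deposited total reads (all genes -0.13) and lay between -0.04 and 0.06 when a library was left out. The number of called genes among all tested, 38, was 25 with limma-voom, 24 with a mean count of at least 10 in each group (fewer genes tested), 85 with no filter (more genes tested) and 2 to 153 with a library left out (2 without WT replicate 2, 153 without WT replicate 1), and apart from the filters the cause was not tested. With the replicate number as a block it was 77, with 0 members called. The labels do not say whether same-numbered libraries are paired. The correlation of their deviations over 7478 genes was -0.0734, and a single such value cannot settle whether they are. The fold of small RNA counts per partner count ran, with a library left out, from 2.01 (without R1810A replicate 1) to 2.96 (without R1810A replicate 2) for C/D, from 1.8 to 3.18 for H/ACA and from 3.42 to 7.41 for snRNA, with the same libraries at both ends. Members with few reads, such as GAR1, NUFIP1, COIL, GEMIN2 and GEMIN8, have wide intervals, and intervals cover the spread of 2 libraries per group.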
